A study of Mus musculus with 6 samples.

Results

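Genes of the myelin programme were followed in RNA-seq of cultured mouse cortical neurons. They were 9 and were given by name: Mbp, Cnp, Mag, Mog, Mobp, Cldn11, Ermn and Opalin, which encode proteins of myelin or of the oligodendrocytes that make it, and Myrf, which encodes a transcription factor of the same cells. The rule is the list of names itself, without a threshold on any value, and all 9 names were found among the 55367 genes of the table. Cells came from the cerebral cortex of C57BL/6J pups on postnatal day 1 and were kept for 2 days in vitro, from WT or Fmr1-KO mice, with 3 libraries of polyA RNA per genotype and no other allele or agent. Fmr1-KO mice lack FMRP, the RNA-binding protein missing in fragile X syndrome, and every difference is given as Fmr1-KO relative to WT. According to the study's methods, papain-dissociated cells of both genotypes were strained and then depleted, with antibody-coated beads, of ACSA2+ astrocytes and of myelin before they were plated on laminin and poly-L lysine in Neurobasal/B27 Plus Medium. The cultures are therefore not brain tissue, and the depletion came before the days in culture. The triplicates are described as independently derived, while the number of pups behind each library and their sex were not given in the sources used here.

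Myelin is the many-layered membrane that oligodendrocytes wrap around axons in the central nervous system. Precursor cells, which express Pdgfra and Cspg4, leave the cell cycle, pass through a committed stage and then switch on the genes of myelin. Sox10 and the Olig factors mark the whole lineage, and MYRF, made as a membrane protein that cuts itself to release a DNA-binding part, is needed for the switch to the myelin genes and for keeping them on. In the mouse cortex most myelination takes place after the first postnatal week.

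Of the 9 genes 8 were lower in Fmr1-KO cultures, at 31.1% to 61.7% of the WT mean, and Ermn was the exception. Levels are CPM, a gene's count relative to the scaled total of its library (TMM, the trimmed mean of M-values), and a gene was called when its adjusted P fell under 0.05 in the quasi-likelihood test of edgeR, adjusted by Benjamini-Hochberg over the 16976 genes tested. Of the 9 members 8 were called lower, against a background of 21.9% of all tested genes, and 0 were called higher, against 20.7%. The members were chosen with earlier results of these data known, so these shares are a description and not a test. The same 8 fell by over 0.5 in log2 units, as did 6.84% of the tested genes. In these 8 the highest of 3 Fmr1-KO libraries was under the lowest WT library, which was so for 26.3% of the tested genes, and in Ermn all 3 exceeded WT, as for 25.4%. The median log2 fold-change was -0.92 over the members and 0.01 over all tested genes. Opalin and Mobp passed the filter on low counts only through their WT libraries, so that a difference in them was partly built in; of the 7 members above the filter in every library, 6 were called lower.

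**Figure D1:**
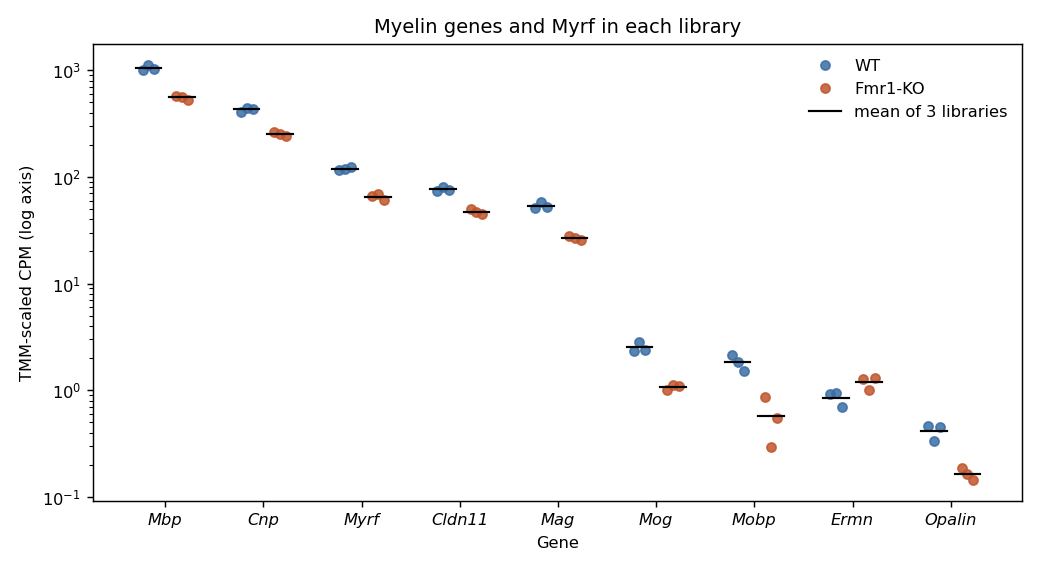
Level of each of the 9 genes in the 3 WT and the 3 Fmr1-KO libraries, as TMM-scaled CPM on a log axis; points are libraries and bars are group means. The Fmr1-KO points lie below the WT points in 8 genes and above them in Ermn, and the means run from 1055 CPM for Mbp in WT to 0.164 CPM for Opalin in Fmr1-KO.

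Library totals ran from 30348556 to 35126207 counts, the highest 1.16 times the lowest, and the common biological coefficient of variation was 3.22%. Fmr1, the targeted gene, was counted 4113, 3710 and 3656 times in WT and 1761, 1879 and 1972 times in Fmr1-KO. The means were 113.4 ± 4.50 and 57.4 ± 3.67 CPM (SD, n = 3 each), for a log2 fold-change of -0.98 (SE 0.04; adjusted P 2.25e-13 by edgeR). No Fmr1-KO library reached the level of a WT library, so the gene did not go against the labels. Libraries of a genotype were not copies of each other. The chi-square of their counts, divided by its degrees of freedom, was 3.03 in WT and 3.31 in Fmr1-KO, where counting error alone gives 1. These values do not show how separate the litters or cultures behind the libraries were. Preparation batches were not given in the sources used here. A difference in litter, dissection or bead depletion between the groups could therefore not be told apart from genotype.

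The transcription factor was examined first among the members. Myrf lies on the minus strand of chromosome 19, from 10208272 to 10240748 (GRCm38). WT libraries held 3997, 3926 and 4170 counts of it, or 115.0, 118.7 and 125.0 CPM. Fmr1-KO libraries held 2141, 2132 and 2110 counts, or 65.8, 69.7 and 60.7 CPM. The lowest WT library was well above the highest Fmr1-KO library, and the group means were 119.6 ± 5.03 and 65.4 ± 4.52 CPM (SD, n = 3 each). In log2 units the fold-change was -0.87 (SE 0.04), at an adjusted P of 1.78e-12 by edgeR, and the Fmr1-KO mean was 54.7% of the WT mean. In bulk RNA, fewer cells of a type and less RNA per cell cannot be told apart, here or for any gene below.

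The structural proteins of compact myelin were next. Mbp encodes myelin basic protein, which holds the cytoplasmic faces of the membrane layers together, and spans 82475146 to 82585637 on the plus strand of chromosome 18. The WT libraries had 34730, 37284 and 34690 counts, or 999.2, 1128 and 1040 CPM. The Fmr1-KO libraries had 18818, 17373 and 18227 counts, or 578.7, 567.5 and 523.9 CPM. The groups were far apart, and the spread within each was small beside the gap: 1055 ± 65.7 against 556.7 ± 29.0 CPM (SD, n = 3 each), a log2 fold-change of -0.92 (SE 0.04) and an adjusted P of 2.07e-13 by edgeR. The Mbp locus also makes the longer golli transcripts, which are found in neurons and other cells as well, and counts summed by gene name did not separate them from the classic transcripts of myelin.

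Mbp made up most of what was measured of these genes. It held 60.6% of the counts of the 9 members in WT and 58.4% in Fmr1-KO. Together the members took 0.164% to 0.182% of all counts in the WT libraries and 0.0910% to 0.0997% in the Fmr1-KO libraries. Any sum over the members is therefore mainly a measure of Mbp.

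Mobp encodes a small basic protein that is also located in compact myelin and that appears late in its formation. The gene is on the plus strand of chromosome 9, from 120149707 to 120181484, and 79 of its exon bases are shared with the predicted gene Gm38642 on the same strand, where reads cannot be assigned to one of the pair. Counts were low, at 74, 61 and 50 in WT and 28, 9 and 19 in Fmr1-KO. The highest Fmr1-KO library stayed below the lowest WT library, but replicate 2 of Fmr1-KO had few reads and the spread was wide relative to the mean, at 1.82 ± 0.316 CPM in WT and 0.567 ± 0.284 CPM in Fmr1-KO (SD, n = 3 each). The log2 fold-change of -1.67 (SE 0.26) was the most negative of the 9, with an adjusted P of 2.15e-05 by edgeR. It moved between -2.09 and -1.38 when single libraries were left out, and its rank among the members is accordingly loose.

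Genes for the non-compact parts of the sheath and for its outer and inner surfaces were measured at levels from high to low. Cnp encodes an enzyme, 2',3'-cyclic nucleotide 3'-phosphodiesterase, that keeps cytoplasmic channels open within the sheath and that is made before compact myelin appears. It is on the plus strand of chromosome 11, from 100574904 to 100591729, with 154 exon bases that face Dnajc7 on the opposite strand, which strand-aware counting keeps apart. Cnp had 14273, 14806 and 14432 counts in WT and 8511, 7792 and 8502 in Fmr1-KO. The CPM were 410.6, 447.8 and 432.5 in WT and 261.7, 254.5 and 244.4 in Fmr1-KO, without overlap. In log2 units the fold-change was -0.76 (SE 0.03), at an adjusted P of 3.25e-13 by edgeR, and the Fmr1-KO mean was 58.9% of the WT mean.

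Mag encodes myelin-associated glycoprotein, an adhesion molecule of the innermost layer that faces the axon, and lies on the minus strand of chromosome 7, from 30899176 to 30914873. It had 1774, 1911 and 1752 counts in WT, or 51.0, 57.8 and 52.5 CPM, and 903, 818 and 887 counts in Fmr1-KO, or 27.8, 26.7 and 25.5 CPM. The 3 Fmr1-KO libraries lay close together, well apart from WT, and their mean was 49.6% of the WT mean. In log2 units the fold-change was -1.01 (SE 0.05), at an adjusted P of 2.02e-12 by edgeR.

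Mog encodes myelin oligodendrocyte glycoprotein, a surface protein of the outermost layer and a marker of mature cells, and lies on the minus strand of chromosome 17, from 37010743 to 37023398. Only 81, 94 and 80 counts were found in WT and 33, 34 and 38 in Fmr1-KO. The levels were 2.52 ± 0.279 and 1.07 ± 0.0508 CPM (SD, n = 3 each), so that the groups were separated despite the few reads. In log2 units the fold-change was -1.23 (SE 0.17), at an adjusted P of 4.49e-06 by edgeR.

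Cldn11 encodes claudin 11, which forms the tight junctions between the layers of the sheath, and lies on the plus strand of chromosome 3, from 31149920 to 31164324. The counts were 2545, 2678 and 2497 in WT and 1612, 1429 and 1569 in Fmr1-KO. This was the least reduced of the genes that were called, with 76.4 ± 4.11 CPM in WT and 47.1 ± 2.27 CPM in Fmr1-KO (SD, n = 3 each). In log2 units the fold-change was -0.70 (SE 0.05), at an adjusted P of 7.84e-11 by edgeR. The groups did not overlap.

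The last 2 members were close to the limit of detection. Opalin encodes a membrane glycoprotein of oligodendrocytes and lies on the minus strand of chromosome 19, from 41061710 to 41077113. It had 16, 11 and 15 counts in WT and 6, 5 and 5 in Fmr1-KO. Each WT library was above each Fmr1-KO library, with a log2 fold-change of -1.33 (SE 0.38) and an adjusted P of 0.00821 by edgeR. DESeq2 left its adjusted P undefined, and a stricter filter removed it, so this call rests on edgeR with few reads.

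Ermn encodes ermin, a cytoskeletal protein that is restricted to oligodendrocytes in the central nervous system and appears late in myelination. The gene is on the minus strand of chromosome 2, from 58045113 to 58052864, with 237 exon bases that face Galnt5 on the opposite strand. It had 32, 31 and 23 counts in WT and 41, 31 and 45 in Fmr1-KO, one library of each genotype having the same number. After scaling, the WT libraries had 0.921, 0.938 and 0.689 CPM and the Fmr1-KO libraries 1.26, 1.01 and 1.29 CPM, which did not overlap but lay close. The log2 fold-change of 0.49 (SE 0.22) did not pass the threshold, with an adjusted P of 0.0761 by edgeR. Over 14 alternative settings it was between 0.36 and 0.59, with adjusted P values from 0.0556 to 0.342. Ermn was thus the 1 member whose value was above zero, and whether it differed between the genotypes was not resolved at this depth.

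Levels of different genes were compared per kilobase of exon, since longer transcripts collect more reads. In WT Mbp (124.6 ± 7.76 CPM per kb, SD, n = 3) and Cnp (118.3 ± 5.13) led and overlapped each other. Cldn11 followed at 40.8 ± 2.196 CPM per kb, then Myrf (14.0 ± 0.588) and Mag (13.2 ± 0.874), which overlapped. Mog (1.48 ± 0.164 CPM per kb) was a wide step lower, and Mobp (0.266 ± 0.0461) and Ermn (0.234 ± 0.0382), which overlapped, and Opalin (0.141 ± 0.0240) closed the order. The low end thus held Mog, Mobp, Ermn and Opalin, which are known as markers of late stages of the lineage.

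In Fmr1-KO the order per kilobase was nearly the same. Cnp (69.7 ± 2.40 CPM per kb, SD, n = 3) and Mbp (65.7 ± 3.42) overlapped at the top, and Cldn11 (25.2 ± 1.21), Myrf (7.64 ± 0.528), Mag (6.55 ± 0.280) and Mog (0.629 ± 0.0298) followed without overlap. Ermn (0.327 ± 0.0422 CPM per kb) came before Mobp (0.0828 ± 0.0415) and Opalin (0.0556 ± 0.00693), the latter pair overlapping. Ermn and Mobp were the neighbours whose order differed from WT beyond the spread within Fmr1-KO.

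Because 8 members moved together, the bases before their start sites were read for the letters of the MYRF and SOX binding motifs. RefSeq windows (GRCm38.p6) were held for 7 of the 9 genes, all but Mbp and Myrf. The 250 bases before each start were searched on both strands for CTGGCAC or CTGGTAC, the core letters bound by MYRF, and for ACAAAG or ACAATG, the core letters bound by SOX proteins such as SOX10. These motifs share no letters with each other in the windows described. The MYRF letters were found in 3 of the 7 genes (Mag, Cnp and Mog) and in 6.79% of all 27025 genes with such windows. The SOX letters were found in 5 of the 7 (Ermn, Mag, Mobp, Cnp and Opalin) and in 28.2% of all genes. Cldn11 had neither. The genes that held the MYRF letters were all lower in Fmr1-KO, but so were Cldn11, Mobp and Opalin, which did not hold them.

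The 3 genes with MYRF letters are shown because Myrf was itself among the reduced genes. Each line runs 5′ to 3′ on the strand of the gene, with the motif letters in capitals (MYRF in Mag, CTGGCAC, in Cnp, CTGGCAC, and in Mog, GTACCAG, the reverse complement of CTGGTAC; SOX in Mag, CTTTGT, the reverse complement of ACAAAG, and in Cnp, ACAAAG). Mag is given before the farthest upstream of its 3 RefSeq starts, at chr7:30914923-30915172, minus strand. Cnp is given at chr11:100574689-100574903, plus strand, without the last 35 bases of its window, which lie in an annotated exon. Mog is given at chr17:37023399-37023648, minus strand.
Mag: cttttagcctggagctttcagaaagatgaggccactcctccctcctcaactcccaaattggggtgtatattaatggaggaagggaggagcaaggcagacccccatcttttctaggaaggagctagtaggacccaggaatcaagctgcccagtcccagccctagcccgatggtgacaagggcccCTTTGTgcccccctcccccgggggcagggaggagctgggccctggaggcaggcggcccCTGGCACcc
Cnp: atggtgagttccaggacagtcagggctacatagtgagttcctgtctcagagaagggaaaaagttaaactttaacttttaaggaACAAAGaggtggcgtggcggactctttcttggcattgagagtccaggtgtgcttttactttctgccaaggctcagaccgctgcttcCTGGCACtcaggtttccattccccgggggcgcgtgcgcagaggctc
Mog: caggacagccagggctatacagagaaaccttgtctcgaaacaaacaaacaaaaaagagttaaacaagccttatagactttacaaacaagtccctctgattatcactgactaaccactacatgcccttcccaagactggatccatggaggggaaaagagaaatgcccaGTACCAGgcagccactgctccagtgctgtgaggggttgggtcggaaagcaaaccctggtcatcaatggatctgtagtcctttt

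The MYRF letters were near the start in all 3 genes. Counted back from the base before the start, which is -1, they began at -81 in Cnp and -83 in Mog. In Mag they began at -9 before the upstream start and at -68 before the next start downstream, the same letters in overlapping windows. The bases after the upstream start were not found in a Mag transcript of the gene annotation used here (GENCODE M21), while those after the next start were. A match describes letters in a window and is neither a bound site nor a cause, and no binding was measured in these cultures.

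**Figure D2:**
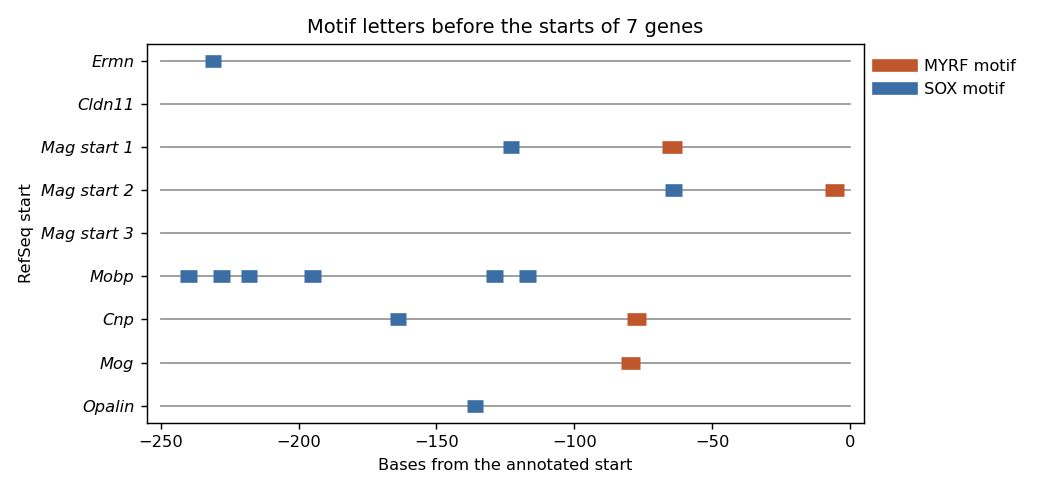
Positions of MYRF letters (orange) and SOX letters (blue) in the 250 bases before each of the 9 RefSeq starts of 7 genes; the x axis is distance in bases from the start. MYRF letters stand in the windows of Mag, Cnp and Mog, Mobp has 6 SOX matches, and Cldn11 and the third Mag start have none.

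Among the other genes of myelin and of the mature oligodendrocyte, lower and uncalled genes stood side by side. Of 27 genes listed, 25 were tested, and 15 were called lower, 0 higher and 10 not called, with a median log2 fold-change of -0.35. Apod, which encodes a lipid carrier, was at 7.88 ± 0.705 CPM in WT and 2.57 ± 0.392 in Fmr1-KO (SD, n = 3 each), a log2 fold-change of -1.62 (SE 0.12, adjusted P of 5.68e-10 by edgeR). Gjc3, which encodes a connexin, fell from 55.3 ± 3.55 to 24.1 ± 1.73 CPM, a log2 fold-change of -1.20 (SE 0.06). Tmem125, a transmembrane protein gene, was at -1.33 (SE 0.40, adjusted P of 0.00978 by edgeR) on 6 to 28 counts; like Opalin it passed the filter only through its WT libraries, and without WT replicate 2 its adjusted P was 0.100. Klk6, which encodes a protease of mature oligodendrocytes, had 0 counts in all 6 libraries, which allows up to 0.0988 CPM in the smallest of them, and Hapln2, for a link protein of the nodes, had too few counts to be tested, at 6 to 11. The median of the list depended on single libraries and was -0.58 without Fmr1-KO replicate 3.

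Genes listed for the earlier stages of the lineage fell too. All 10 genes listed for committed and newly formed oligodendrocytes were called lower, with log2 fold-changes from -1.04 to -0.39 and a median of -0.63. Neu4, a sialidase gene, fell from 6.98 ± 0.440 to 3.40 ± 0.261 CPM (SD, n = 3 each), and Itpr2, for an intracellular calcium channel, from 163.8 ± 5.94 to 90.4 ± 6.10. Enpp6, for a choline-releasing phosphodiesterase, fell from 147.8 ± 8.82 to 84.7 ± 5.98 CPM, and Bcas1, which marks cells at the start of myelination, from 567.7 ± 18.6 to 349.8 ± 22.1. Their log2 fold-changes were -1.04, -0.86, -0.80 and -0.70.

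Of 9 genes of oligodendrocyte precursors, 8 were called lower and 1, C1ql1, was not (log2 fold-change -0.06, adjusted P 0.600 by edgeR), with a median of -0.61. Olig2 fell from 125.6 ± 4.87 to 75.3 ± 4.71 CPM (SD, n = 3 each), a log2 fold-change of -0.74 (SE 0.04). Olig1 (-0.71, SE 0.04) and Sox10 (-0.69, SE 0.04), like Olig2 transcription factors of the lineage, and Cspg4 (-0.64, SE 0.06), for the NG2 proteoglycan, followed. The other genes called were Matn4 (-0.61, SE 0.11), Lhfpl3 (-0.55, SE 0.04), Pdgfra (-0.45, SE 0.04) and Sox8 (-0.15, SE 0.03). Since Sox10, Olig1 and Olig2 mark the whole lineage, the median of this list does not describe precursors alone. The 3 lineage lists thus had medians of -0.35, -0.63 and -0.61 beside -0.92 for the members and 0.01 for all genes tested. Among marker lists of other cells, described below, medians were -0.97 for microglia, -0.685 for neurons and -0.28 for fibroblasts and meninges. They were 0.03 for astrocytes, 0.08 for Schwann cells, 0.12 for endothelial cells and 0.70 for proliferating cells. Falls of this size were therefore not limited to the lineage, and the differences between medians were not tested.

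**Figure D3:**
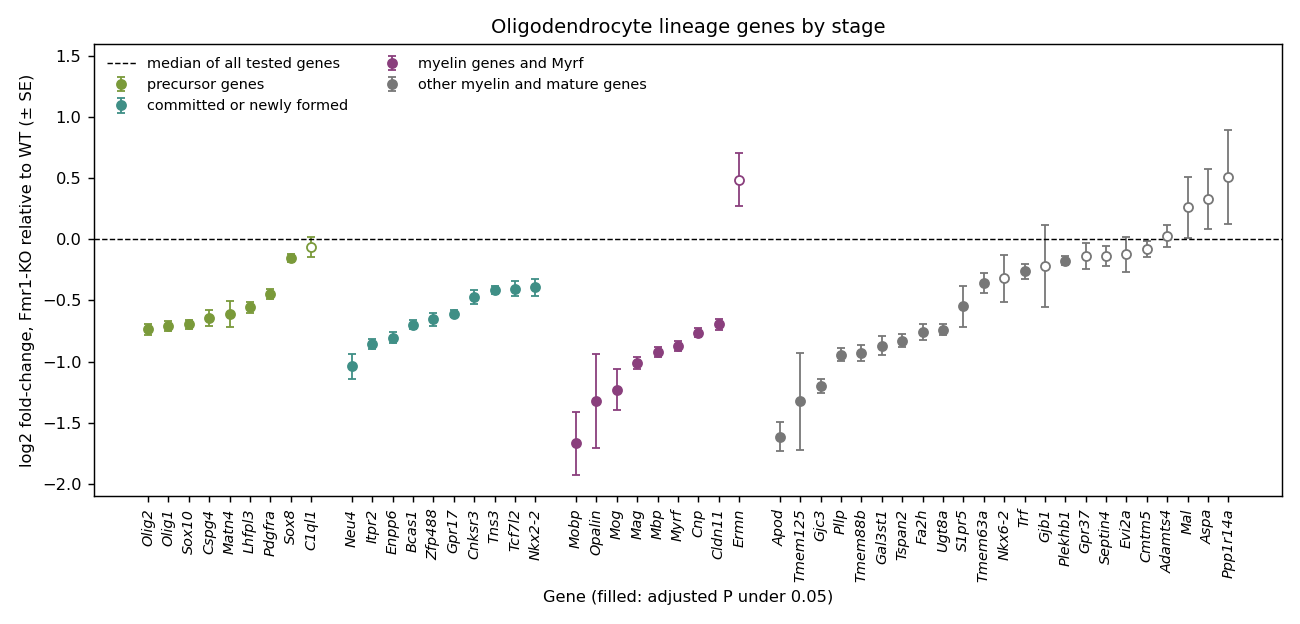
log2 fold-change (Fmr1-KO relative to WT, with its SE as bars) of tested genes of the precursor, committed, member and other myelin lists, ordered by value within a list; filled points are the genes called by edgeR (adjusted P under 0.05), and the dashed line marks the median of all tested genes. Every filled point lies below the line, 8 of the 9 members included, while Ermn is open and above it.

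Factors that act upstream of Myrf or beside it were mixed. Of 13 factors that promote Myrf or differentiation, 8 were called lower, 2 higher and 3 not called, with a median of -0.32. Several of these genes also stand in the lists above: Olig2, Olig1 and Sox10 were the lowest, followed by Zfp488, a zinc finger corepressor gene, at -0.65 (SE 0.05, adjusted P of 1.61e-09 by edgeR). The 2 that rose, named after their values were seen, encode chromatin remodellers found in many cell types: Chd7 (log2 fold-change 0.35, SE 0.04) and Smarca4 (0.11, SE 0.03). The median moved to -0.18 without WT replicate 3 and to -0.42 without Fmr1-KO replicate 2.

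Of 12 factors that restrain differentiation, 3 were called lower, 3 higher and 6 not called, with a median of 0.02. Across all tested genes 21.9% were called lower and 20.7% higher, so the counts of this list were near the background. Gpr17, for a receptor of committed cells that also stands in the list of that stage, fell from 357.6 ± 5.09 to 234.8 ± 9.18 CPM (SD, n = 3 each), a log2 fold-change of -0.61 (SE 0.03). Lingo1, for a membrane inhibitor of differentiation that neurons also express, was at -0.32 (SE 0.04). Tmem98, whose protein binds MYRF and blocks its self-cleavage, rose from 19.5 ± 0.963 to 24.2 ± 0.867 CPM, a log2 fold-change of 0.31 (SE 0.06, adjusted P of 0.000166 by edgeR), and Id4, for an inhibitor of helix-loop-helix factors, was at 0.18 (SE 0.03). Tmem98, Id4 and Lingo1 were not called when a fold-change of at least 1.2 was required.

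Since the lineage factors fell as well, each member was divided by the summed CPM of Sox10, Olig1 and Olig2 in the same library. For the sum of the 9 members the ratio was 3.74, 4.16 and 3.87 in the WT libraries and 3.39, 3.76 and 3.42 in the Fmr1-KO libraries. These overlapped, with a log2 ratio of the group means of -0.15. Before division the same sum was 1655 to 1839 CPM in WT and 902.6 to 987.0 CPM in Fmr1-KO, without overlap. For Myrf the ratio was 0.260, 0.269 and 0.280 in WT and 0.226, 0.271 and 0.230 in Fmr1-KO, also with overlap. Cnp (log2 ratio -0.05) and Cldn11 (0.02) overlapped too.

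In the other members the genotypes were separate in this ratio. Mbp had 2.26, 2.55 and 2.33 times the level of the lineage factors in WT and 1.99, 2.21 and 1.98 times in Fmr1-KO, a log2 ratio of -0.21, and here the groups were separate by a narrow gap that closed when Sox10 was left out of the divisor. Mag (-0.30), Mog (-0.51), Opalin (-0.63) and Mobp (-0.9995) were below WT in all 3 Fmr1-KO libraries, and Ermn (1.197) was above. With the whole list of precursor genes as divisor, the log2 ratio of the sum was -0.33 and its groups did not overlap. With that divisor the Fmr1-KO libraries were also below WT for Myrf (-0.33), Cnp (-0.23) and Cldn11 (-0.16), so that the overlap of these genes, and the sign for Cldn11, depended on the divisor. With 3 libraries per genotype, the smallest two-sided P of an exact permutation test is 0.1, so no ratio could pass 0.05 by that test. The ratios were not tested in any other way.

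**Figure D4:**
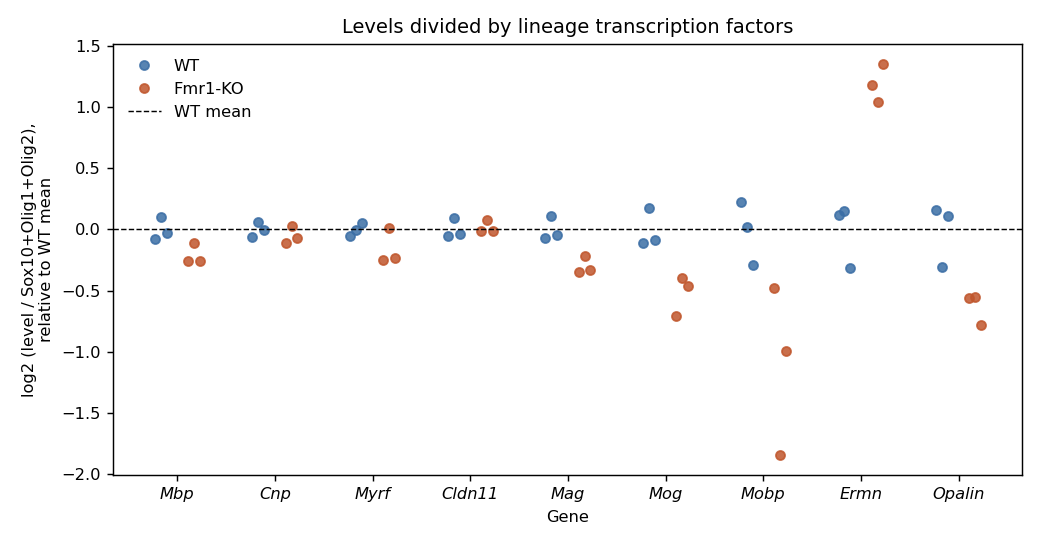
Each member's CPM divided by the summed CPM of Sox10, Olig1 and Olig2 in the same library, shown relative to the WT mean on a log2 axis; points are libraries. Cnp, Cldn11 and Myrf overlap between the genotypes with this divisor, Mag, Mog, Opalin and Mobp lie lower in Fmr1-KO, Mbp is separate by a narrow gap, and Ermn lies higher.

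Other cells in the cultures also differed between the genotypes. The markers of Schwann cells, which make myelin in peripheral nerves and express several of the members, were not lower: of 8 markers 4 were tested, 0 were called lower and 1, Prx, was called higher, and their summed level was 70.4 to 74.3 CPM in WT and 76.4 to 79.5 in Fmr1-KO. Most of that sum was Drp2, at 62.4 ± 2.01 CPM in WT and 65.0 ± 0.679 in Fmr1-KO (SD, n = 3 each), while Pmp2, for a lipid-binding protein of peripheral myelin, had 0 counts. Microglial markers were lower, with 8 of 9 called, and summed to 215.8 to 237.0 CPM in WT and 120.4 to 136.4 in Fmr1-KO. All 9 markers of proliferating cells were higher, summing to 443.5 to 494.3 CPM in WT and 797.0 to 891.2 in Fmr1-KO. The part of microglia and of dividing cells in the members' difference was not tested.

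The labelled cell type was present with others. Of 12 neuronal markers 11 were called lower and 1 higher, and their sum was 5489 to 5624 CPM in WT and 4536 to 4748 in Fmr1-KO. That sum rests most on Dcx, Map2 and Tubb3, at WT means of 1253, 1185 and 1093 CPM. Their log2 fold-changes were 0.08, -0.11 and -0.28, while the median over the 12 markers was -0.685. Astrocyte markers, at 5258 to 5385 CPM in WT and 4672 to 5051 in Fmr1-KO, were still plentiful after the depletion, with 4 called lower, 3 higher and 2 not called. Of 8 endothelial markers 6 were tested, with 1 called lower, 2 higher and 3 not called, and Cldn5 was at 1 to 9 counts. The sum of the 8 was 12.6 to 16.7 CPM in WT and 22.8 to 24.7 in Fmr1-KO. Its rise rests on Kdr, named after its value was seen, at 7.27 ± 0.784 CPM in WT and 17.1 ± 1.24 in Fmr1-KO (SD, n = 3 each). Flt1 was also called higher (log2 fold-change 0.41) and Cdh5 lower (-0.66), so the sum does not describe the list as a whole. Markers of fibroblasts and meninges overlapped in their sum, at 467.4 to 512.3 CPM in WT and 469.6 to 510.7 in Fmr1-KO. Of the 9 markers 5 were called lower, 1 higher and 3 not called. The 1 called higher, Ogn, was at 54.9 ± 3.28 CPM in WT and 101.2 ± 5.02 in Fmr1-KO (SD, n = 3 each). Col1a1 and Col3a1 were both called lower, each at a log2 fold-change of -0.28, so the overlap does not mean that the markers were unchanged. No other defining marker in these lists was at 0 counts, and the part of these cells in the members' difference was not tested either.

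**Figure D5:**
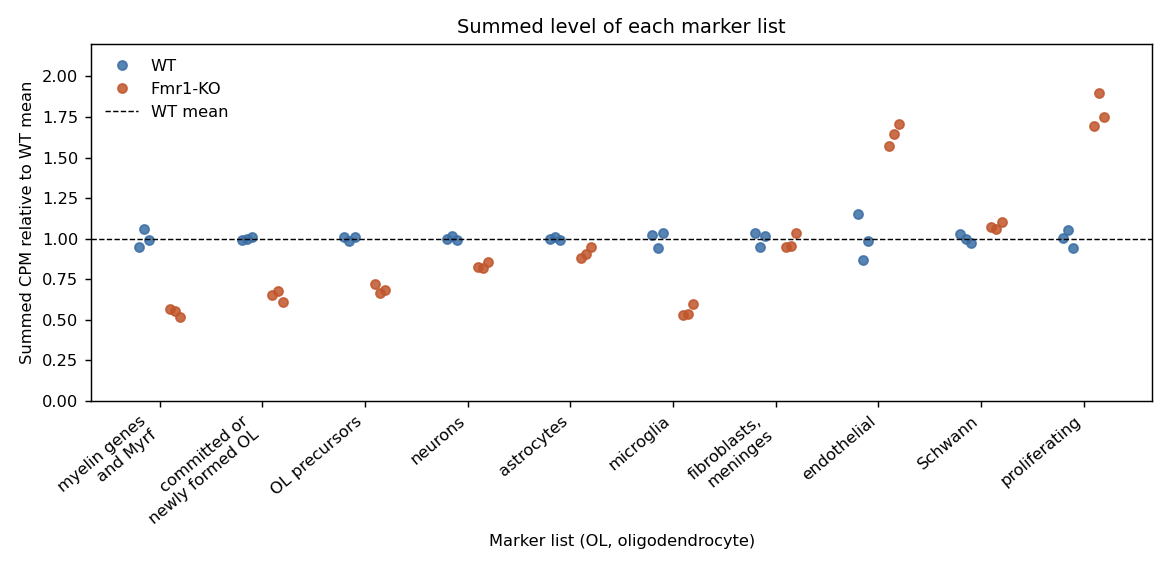
Summed CPM of each marker list in each library, divided by the WT mean of the list (linear axis from 0; dashed line, WT mean); points are libraries. Members, committed cells, precursors and microglia lie lowest in Fmr1-KO, neurons and astrocytes lie lower by less, fibroblasts and meninges overlap, and Schwann, endothelial and proliferating lists lie higher. A sum is weighted to its highest genes. The rise of the endothelial sum rests on Kdr, and the overlap of the fibroblast sum includes a rise of Ogn beside lower markers. Median log2 fold-changes were -0.685 for the neuronal list and 0.03 for the astrocyte list.

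The genes whose pattern was most like that of a member were sought by Pearson's r of log2 CPM over the 6 libraries, among the 10763 genes whose mean reached 10 CPM. The libraries form 2 genotypes and share their depth scaling, so that a gene with tight groups can score high: 130 genes had an r above 0.99 to Mbp and 111 to Myrf. Nearest to Mbp were Ppfia3 (r = 0.9997), Mag (0.9994) and Asb6 (0.9993), while Cnp was at 0.9990 and Cldn11 at 0.9983. Nearest to Myrf were Bcas1 (r = 0.9997), Nsf (0.9987) and 2310061I04Rik (0.9985), while the r of Mbp and Myrf to each other was 0.9896. Likeness of pattern says nothing of size, as Asb6 had a log2 fold-change of -0.16 and Mbp of -0.92.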

How the data were processed

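RNA was measured in 6 libraries, 3 WT and 3 Fmr1-KO, grouped by labelled genotype. The file deposited by the authors holds raw counts for each gene. Per the study's methods and the submitters' processing notes, single-end reads from a stranded kit were trimmed with FastP, aligned to GRCm38.p6 with STAR 2.7.6a and counted over exons, reverse-stranded and by gene name, with featureCounts (Subread 2.0.1 in the notes). Isoforms are therefore not separated. No row lacked a gene name, and 31650 of 55367 rows had a count. Totals of 30348556 to 35126207 counts limit genes of few reads to coarse values, and the limit given for a count of 0 (3 counts) covers counting error only.

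The test was edgeR 4.0.16 (R 4.3.3) on the whole table: filterByExpr (a minimum of 10 counts, here 0.298 CPM, in 3 libraries), TMM scaling, then a 2-sided glmQLFTest after glmQLFit, the model holding genotype alone. SE is the size of the log2 fold-change divided by the square root of F. CPM are TMM-scaled. The members and gene lists were chosen with earlier results of these data known, so no P was adjusted over a list alone, and lists are described by counts and medians. Named genes are the members, Fmr1 and, in each lineage or factor list, the 4 called genes with the largest change and genes at 0 counts. Some others, such as Kdr, Ogn and Pdgfra, were named after their values were seen. Some listed genes are not reported here. Sept4 was matched as Septin4. Coordinates and exon lengths are from GENCODE M21, an earlier release than the authors used; promoter windows are from RefSeq (GRCm38.p6). The fit was tested on simulated counts, where 93.47% of 199 genes changed by 1 log2 unit were recovered and 0.0662% of unchanged genes were called. The simulation used a common dispersion and changed far fewer genes than were called here, so these rates need not hold for these data. Alternatives were DESeq2 1.42.0, RLE and upper-quartile scaling, no scaling beyond library totals, a replicate block, no filter or a mean of at least 20 counts, a minimum fold change of 1.2, leaving out each library, and other lineage genes as divisor.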

Additional observations from a re-analysis of the deposited data

How the results depend on the processing

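The 8 lower members kept their direction and call under every alternative that gave them a value. The count was 7 with DESeq2, which left the adjusted P of Opalin undefined, and 7 with the stricter filter, which removed Opalin; 0 were called higher throughout. Of 843 values recomputed under an alternative, 807 kept their direction and call or, for counts and medians, their size within a tolerance, and none reversed. The tolerance was wide for counts: 2699 genes called higher with DESeq2, against 3506, was taken as kept. Ratios of single members were not among these values, and that of Cldn11 went from 0.02 to -0.16 with the whole precursor list as divisor. Requiring a fold change of 1.2 left 1340 genes lower and 883 higher in the whole table, 5 lower and 1 higher among promoting factors, 1 and 0 among restraining factors, 0 higher among neuronal markers, 1 lower and 0 higher among astrocyte markers, 0 lower and 1 higher among endothelial markers and 1 lower among markers of fibroblasts; fewer calls follow from the construction of that test. Endothelial markers called higher were 1 with no filter and 1 with DESeq2. With library totals alone the median of the restraining factors was 0.0492, and with the whole precursor list as divisor the log2 ratio of the members was -0.33; the cause was not tested.

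Leaving out single libraries moved the median of the other myelin genes between -0.58 (without Fmr1-KO replicate 3) and -0.33 and that of the promoting factors between -0.42 and -0.18 (the ends left out Fmr1-KO replicate 2 and WT replicate 3). It gave 1 to 2 Schwann cell markers higher (2 without Fmr1-KO replicate 1), 0 to 1 neuronal markers higher (0 without WT replicate 1 or 3 or Fmr1-KO replicate 3), 0 to 1 endothelial markers lower (0 without WT replicate 1) and 1 to 2 higher (2 only without Fmr1-KO replicate 1). The replicate block, for numbers that did not pair the libraries (same-numbered libraries deviated with correlations of -0.05, 0.04 and -0.005), gave 3694 genes lower and 3488 higher against 3725 and 3506, and 8 members lower; it changed no call named here. Depth limits Opalin, Ermn and Mobp, at 5 to 74 counts per library.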
